A study of Mus musculus with 4 samples.

Results

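The genes described here are 9 members of the plasminogen system and of the proteases that AP-1 controls: PLAU, PLAUR, PLAT, SERPINE2, SERPINB2, MMP1, MMP3, MMP10 and THBS1. They were taken by name, as every probe on the array whose gene name is 1 of these, which gave 11 of the 41000 probes that are not controls. SERPINB2 and THBS1 have 2 probes each and the other members 1. All 9 genes were measured well enough to be tested, among 17871 tested of the 18757 named genes on the array.

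RNA was taken from H460, a human cell line established from a lung carcinoma, that had been kept for 4 h in 250 µM farnesol (FOH) or in its vehicle, dimethyl sulphoxide (DMSO). Farnesol is an isoprenoid alcohol of the mevalonate pathway. Both conditions were grown in the same medium, RPMI1640 with heat-inactivated serum, and the labels name no other agent. The experiment was done in duplicate, and the farnesol and vehicle RNAs of 1 experiment shared 2 arrays on which Cy5 and Cy3 were exchanged, so the 4 arrays hold n = 2 replicates. The organism field gives mouse, whereas H460 is human according to the protocols and the array's gene names are human. The data represent a single line, and with so few replicates every value is imprecise.

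Urokinase (uPA, from PLAU) and tissue-type plasminogen activator (tPA, from PLAT) cut plasminogen into plasmin, a broad serine protease. Urokinase does this at the cell surface on its receptor, uPAR (from PLAUR), while serpins such as PAI-2 (SERPINB2) and protease nexin-1 (SERPINE2) trap the activators. Plasmin degrades fibrin and matrix and activates secreted matrix metalloproteinases (MMPs), among them the collagenase MMP1 and the stromelysins MMP3 and MMP10. Thrombospondin-1 (THBS1) is a matrix glycoprotein that binds plasminogen and matrix proteases. AP-1, the dimer of FOS and JUN proteins, binds the promoters of PLAU, MMP1 and MMP3, and these genes have long been studied in the invasion of lung and other carcinomas.

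Unless said otherwise, a value is the log2 ratio of farnesol to vehicle, on 1 array or as mean ± SD over the replicates, and the brightest probe stands for a gene. None of the 9 genes passed limma's test at an adjusted p of 0.05, where 0.0168% of all tested genes passed as higher and 0% as lower. None was at least 2-fold higher in the mean of each replicate with all arrays in that direction, against 0.839% of all genes, or 2-fold lower by the same rule, against 0.313%. At an unadjusted p under 0.05, MMP1, PLAUR and SERPINB2 were higher (3 of 9, against 4% of all genes) and PLAT was lower (1 of 9, against 13%). The median of the members' log2 ratios was 0.15, with 0.16 in replicate 1 and 0.13 in replicate 2, and the median of all tested genes was 0.01. In RNA from whole cultures, less RNA per cell and fewer expressing cells cannot be told apart.

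The direction was the same on all 4 arrays for 7 members. PLAU, PLAUR, SERPINB2, MMP1 and MMP10 were higher with farnesol (5 of 9, against 21% of all genes), and PLAT and THBS1 were lower (2 of 9, against 24.8%). SERPINE2 and MMP3 had 2 arrays on each side of 0.

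**Figure D1:**
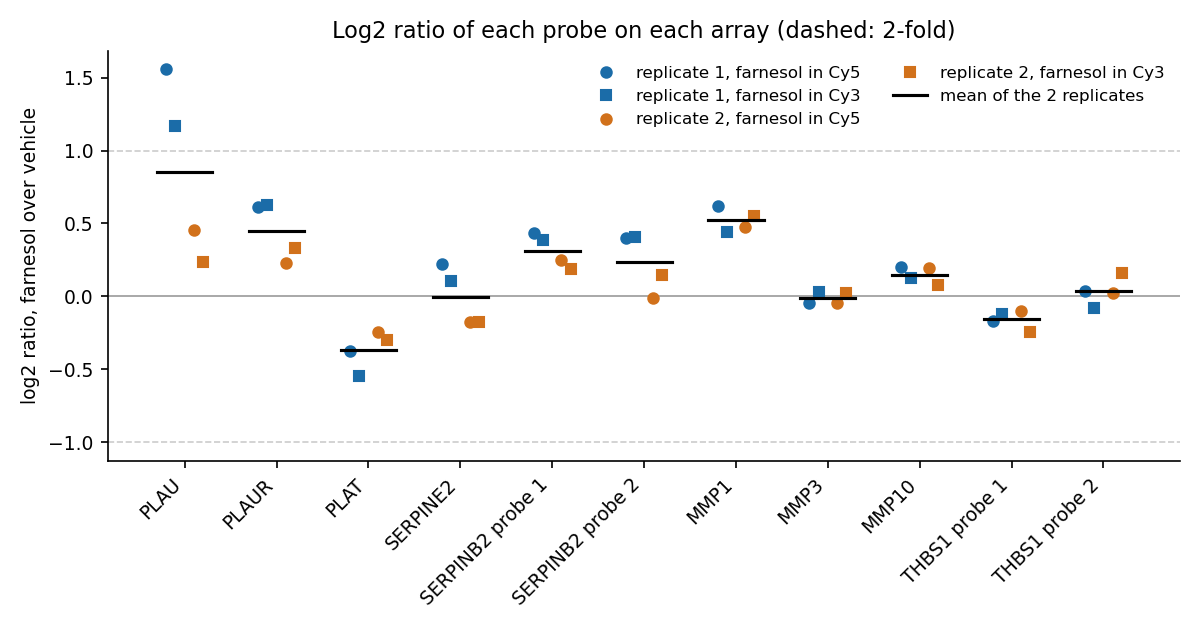
Log2 ratio of farnesol over vehicle (y axis) for each of the 11 probes (x axis), with 1 point per array (blue, replicate 1; orange, replicate 2; circles, farnesol in Cy5; squares, farnesol in Cy3), black lines at the mean of the 2 replicates and dashed lines at 2-fold. PLAU spans 0.24 to 1.56, with both replicate 1 arrays above 2-fold and both replicate 2 arrays below it, and the MMP3 points lie on 0.

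Among the activators, PLAU had the largest mean ratio of the members with the offset of 50, and it differed between the replicates. MMP1 was above it with an offset of 0 (1.20 for MMP1 and 0.99 for PLAU), with the processed values (1.36 for MMP1 and 0.96 for PLAU) and in replicate 2 alone (0.51 for MMP1 and 0.34 for PLAU). The scanner software's processed intensities of PLAU with farnesol were 9423 and 8121 in replicate 1 and 3613 and 3497 in replicate 2, against 2862 and 3352 with vehicle in replicate 1 and 2496 and 2857 in replicate 2. Every farnesol value was above every vehicle value, as for 4.76% of all genes, and MMP1 was the other such member. No member had every farnesol value below every vehicle value, against 6.68% of all genes. The vehicle values of PLAU differed 1.34-fold at most, while the farnesol values of replicate 1 stood well above those of replicate 2. The log2 ratio was 1.56 and 1.17 on the arrays of replicate 1 and 0.45 and 0.24 on those of replicate 2. The gap between replicates was thus wider than the gap between dye-swapped arrays of the same RNA. The mean was 0.85 ± 0.72 (SD, n = 2), or 1.81-fold, with limma adjusted p = 0.407 and a 95% interval from -0.17 to 1.87. Replicate 1 alone gave 2.57-fold and replicate 2 alone 1.27-fold. By its mean ratio PLAU stood at place 304 of the 17871 genes, counted from the highest.

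PLAT, which encodes the other activator, had the opposite sign. Its processed intensities with farnesol were 874 and 696 in replicate 1 and 666 and 572 in replicate 2, against 1271 and 1203 with vehicle in replicate 1 and 890 and 848 in replicate 2. Within each array the farnesol value was the lower one, although the ranges of the conditions overlapped. Its log2 ratio was -0.37 and -0.55 in replicate 1 and -0.24 and -0.30 in replicate 2. The mean was -0.37 ± 0.13 (SD, n = 2), or 1.29-fold lower, with limma adjusted p = 0.259 and a 95% interval from -0.62 to -0.11. The scanner software's processed values gave -0.58, or 1.49-fold lower. Of all tested genes, 9.51% had a lower mean ratio than PLAT. The log2 ratio of PLAU minus that of PLAT was 1.82 in replicate 1 and 0.62 in replicate 2 (mean 1.22 ± 0.85, SD, n = 2). An exact two-sided test of this difference cannot go below p = 0.5, and no other test of it was run.

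PLAUR, the urokinase receptor gene, had processed intensities of 1272 and 1308 with farnesol in replicate 1 and 765 and 570 in replicate 2, against 634 and 736 with vehicle in replicate 1 and 516 and 360 in replicate 2. The farnesol value was the higher one on every array, and the ranges overlapped because both conditions were dimmer in replicate 2. Its log2 ratio was 0.61 and 0.63 in replicate 1 and 0.23 and 0.33 in replicate 2. The mean was 0.45 ± 0.24 (SD, n = 2), or 1.37-fold, with limma adjusted p = 0.294 and a 95% interval from 0.07 to 0.83. From the processed values it was 0.77 ± 0.21, or 1.70-fold. PLAUR was at place 816 from the highest.

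**Figure D2:**
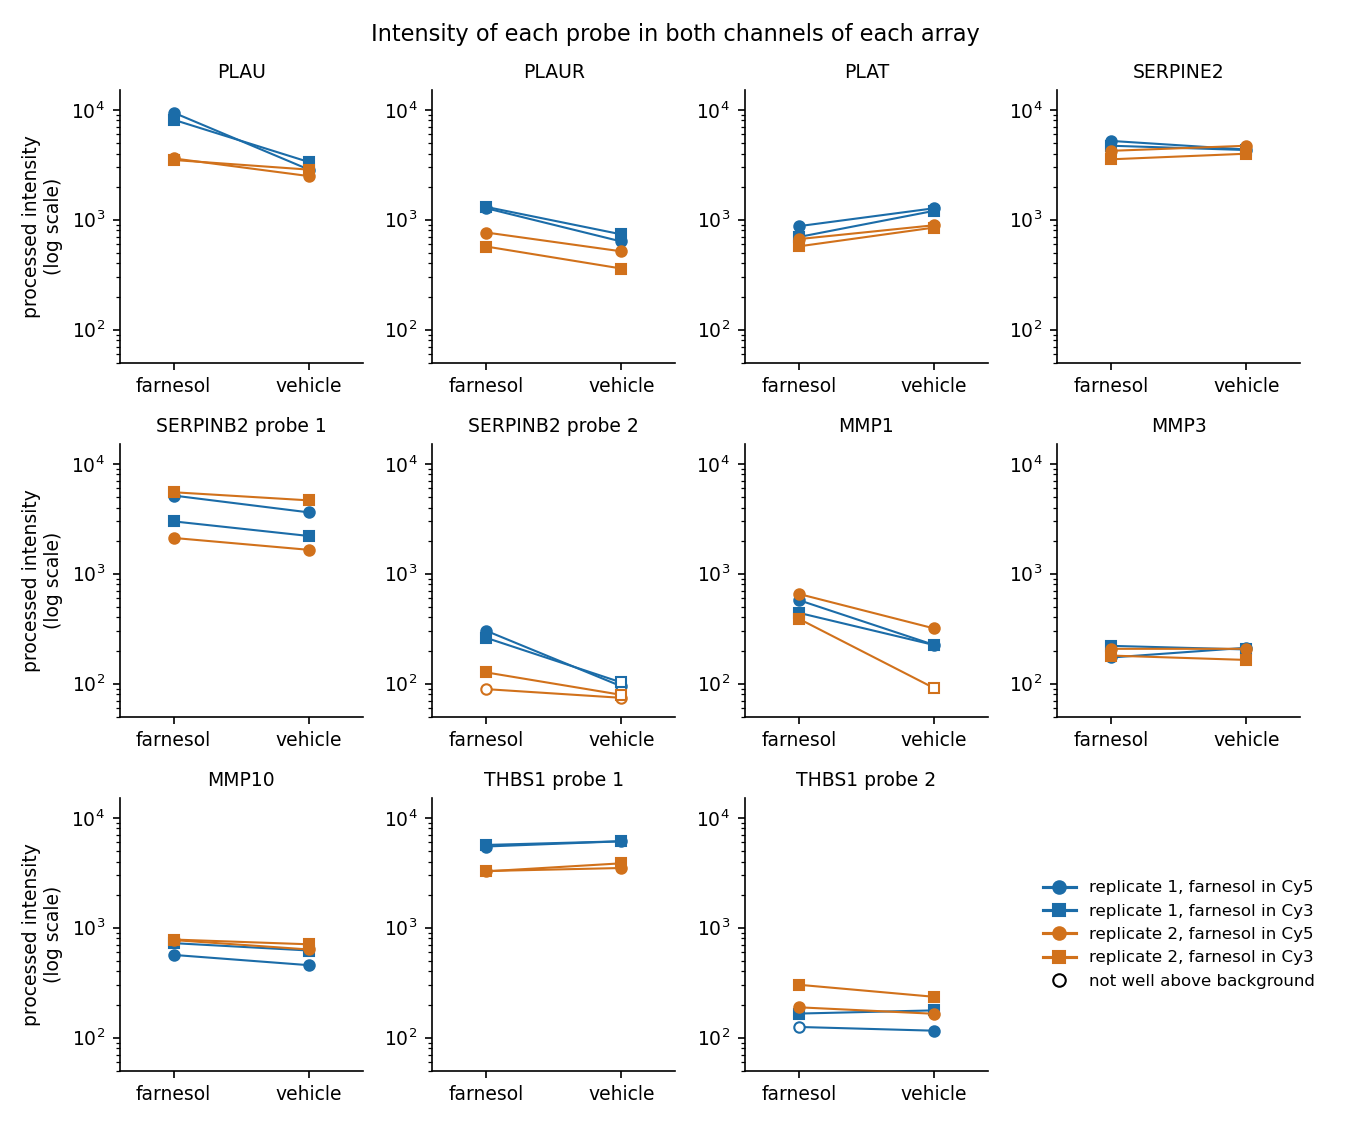
Processed intensity from the scanner software (y axis, log scale, the same in each panel) of the 11 probes with farnesol and with vehicle, where a line joins the channels of 1 array (blue, replicate 1; orange, replicate 2; circles, farnesol in Cy5; squares, farnesol in Cy3) and open symbols were not well above background. The PLAU vehicle points lie between 2496 and 3352 while its farnesol points lie at 3497 and 3613 in replicate 2 and at 8121 and 9423 in replicate 1.

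The inhibitors among the members had small ratios. For SERPINB2, which encodes PAI-2, the brighter probe had log2 ratios of 0.43 and 0.38 in replicate 1 and 0.25 and 0.18 in replicate 2. All 4 arrays were higher with farnesol, with a mean of 0.31 ± 0.14 (SD, n = 2), or 1.24-fold, limma adjusted p = 0.294 and a 95% interval from 0.05 to 0.57. Under median centring of each array in place of loess, replicate 2 was at -0.01. The level of this probe itself differed between arrays, with processed intensities from 2116 to 5514.5 for farnesol and from 1650 to 4651.5 for vehicle, and its spot lies in row 206, the last row of the array. Both channels moved together, so the ratios varied less than the levels.

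The second SERPINB2 probe was dim. It was well above background with farnesol on 3 of 4 arrays and with vehicle on 0 of 4. Its processed intensities with farnesol were 302 and 261 in replicate 1 and 89.0 and 126 in replicate 2, against 94.5 and 102 with vehicle in replicate 1 and 74.2 and 79.0 in replicate 2. The farnesol spots stood clear of vehicle in replicate 1, while 1 of the replicate 2 spots fell within the vehicle range. The mean farnesol level over the 4 arrays was 1.18-fold the vehicle level as measured (adjusted p = 0.484 in limma's fit over 37349 probes). It was set, after loess and scaling between arrays, against the higher of the probe's own vehicle level and the lowest level well above background. The higher of these was the probe's own level, so 1.18-fold is a ratio over background under this processing and was not set as a lower limit. The log2 ratio behind the 1.18-fold was 0.40 in replicate 1 but 0.070 in replicate 2, with 1 array at -0.0093. The size depended on the processing. The mean was 1.27-fold under median centring, 1.65-fold with an offset of 0 and 1.99-fold with the processed values. With the processed values the log2 ratio was 1.51 in replicate 1 and 0.47 in replicate 2.

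SERPINE2, which encodes protease nexin-1, had log2 ratios of 0.22 and 0.10 in replicate 1 and of -0.17 on both arrays of replicate 2. The replicates lay on opposite sides of 0. Their mean was -0.0061 ± 0.24 (SD, n = 2), with limma adjusted p = 0.986 and a 95% interval from -0.38 to 0.37. Its sign turned with an offset of 0 (0.046) and with the processed values (0.017).

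Of the 3 metalloproteinases among the members, MMP1, interstitial collagenase, had the highest mean ratio. Its log2 ratio was 0.62 and 0.44 in replicate 1 and 0.48 and 0.55 in replicate 2. The mean was 0.52 ± 0.0094 (SD, n = 2), or 1.43-fold, with limma adjusted p = 0.192 and a 95% interval from 0.34 to 0.70. Its unadjusted p, 0.00307, was the lowest of the members, and it stood at place 661 from the highest.

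MMP1 was also the member whose size depended most on the processing. Its processed intensities with farnesol were 575 and 441 in replicate 1 and 655 and 389 in replicate 2, against 225 and 225 with vehicle in replicate 1 and 318 and 91.2 in replicate 2. The farnesol values did not overlap the vehicle values, and the lowest vehicle value was on the 1 array where it was not well above background. From these values the mean log2 ratio was 1.36 ± 0.29 (2.57-fold, adjusted p = 0.0845 in limma's fit over probes). With a normexp offset of 0 it was 1.20 ± 0.13 (2.30-fold, adjusted p = 0.0658 in the same kind of fit). Under both, the mean of each replicate was at least 2-fold with all arrays higher, a rule that 1.25% of all genes met with the processed values and 1.2% with the offset of 0. On single arrays the processed log2 ratio of MMP1 was 1.35 and 0.97 in replicate 1 and 1.04 and 2.09 in replicate 2. The 2.09 is from the array whose vehicle spot was not well above background, so it is a ratio over background, and it enters the mean of 1.36. The offset of 50, which is added to each channel, shrinks the ratio of a probe as dim as this one.

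**Figure D3:**
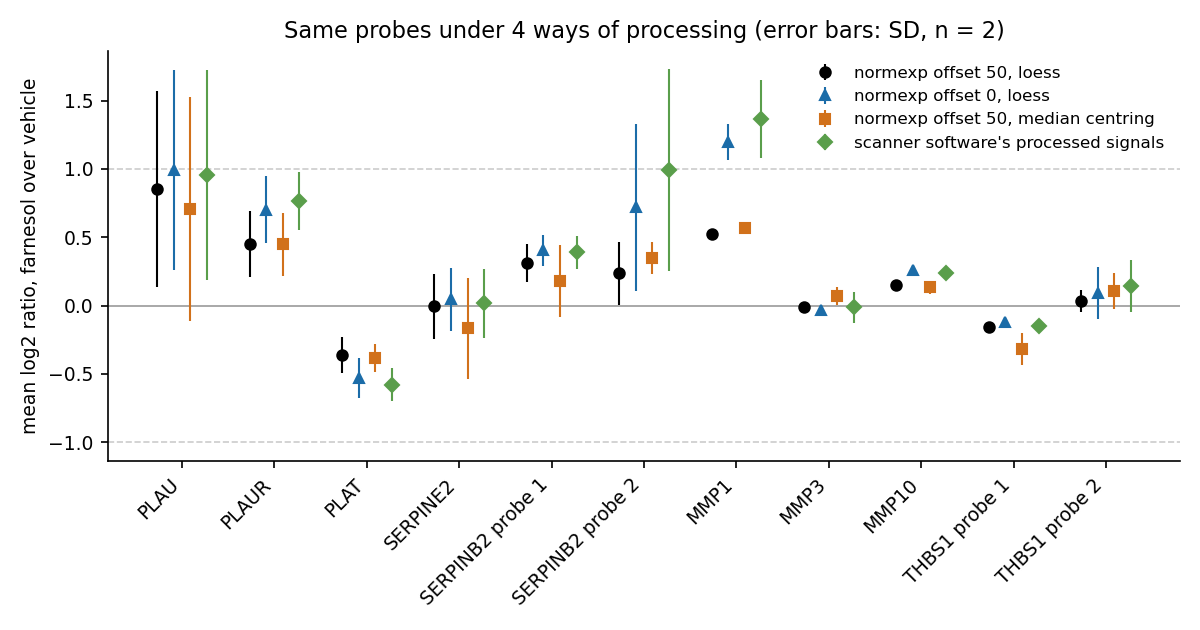
Mean log2 ratio of farnesol over vehicle (y axis; error bars, SD, n = 2) of the 11 probes (x axis) under 4 ways of processing, with dashed lines at 2-fold. MMP1 is at 0.52 with the offset of 50 and at 1.20 and 1.36 with the offset of 0 and the processed values, while MMP3 is within 0.07 of 0 in each.

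The stromelysin genes gave small values. MMP3 had log2 ratios of -0.047 and 0.028 in replicate 1 and -0.044 and 0.021 in replicate 2, a mean of -0.010 ± 0.0013 (SD, n = 2) with limma adjusted p = 0.946 and a 95% interval from -0.19 to 0.17. Its processed intensities were 173 to 220 with farnesol and 164 to 212 with vehicle, so the ranges overlapped almost wholly, and its sign turned under median centring (0.069). The negative sign came with farnesol in Cy5 and the positive one with farnesol in Cy3.

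MMP10 had log2 ratios of 0.20 and 0.12 in replicate 1 and 0.19 and 0.07 in replicate 2. These are 4 small positive values, with a mean of 0.15 ± 0.021 (SD, n = 2), or 1.11-fold, limma adjusted p = 0.414 and a 95% interval from -0.03 to 0.33. The mean was 0.26 with an offset of 0 and 0.24 from the processed values. Its processed intensities ran from 565 to 780 with farnesol and from 456 to 706 with vehicle.

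For THBS1, the brighter probe had log2 ratios of -0.17 and -0.12 in replicate 1 and -0.10 and -0.24 in replicate 2. All 4 were below 0, with a mean of -0.16 ± 0.016 (SD, n = 2), or 1.12-fold lower, limma adjusted p = 0.387 and a 95% interval from -0.34 to 0.02. Median centring gave -0.32, and the mean of both probes -0.062. Its processed intensities were 3258 to 5667 with farnesol and 3496 to 6121 with vehicle, and both conditions were dimmer in replicate 2. The second probe was dim, with processed intensities of 125 to 303 with farnesol and 116 to 235 with vehicle. With farnesol it was well above background on 3 of 4 arrays. Its log2 ratio was -0.022 in replicate 1 and 0.090 in replicate 2, on opposite sides of 0, with a mean of 0.034 ± 0.079.

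When the 4 arrays entered the fit singly, with the replicate as a random block (estimated correlation of arrays 0.55), 4 members passed limma's test. MMP1 had adjusted p = 0.00978, PLAUR 0.0314 and SERPINB2 0.0378, all higher (3 of 9, against 2.93% of all genes). PLAT had adjusted p = 0.0406 and was lower (1 of 9, against 9.73%). PLAU, with adjusted p = 0.0949, did not pass in this fit. With the replicate as a fixed block beside the dye, 5 of 9 were higher, against 29.5% of all genes, and 2 of 9 lower, against 32%. Arrays of 1 RNA pair are technical repeats, so neither fit adds a replicate to the n = 2. The random block enters them as correlated samples, with 1 correlation used for all genes. The fixed block takes the spread between replicates out of the error.

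The 5 lists of genes around the members, AP-1 aside, had median log2 ratios from -0.02 to 0.05, against 0.01 for all genes, and single genes lay farther out. Of 19 other genes of the plasminogen system and clotting, 0 passed limma's adjusted test and 3 were higher (against 4% of all genes) and 1 lower (against 13%) at an unadjusted p under 0.05, with a median log2 ratio of 0.05. PLG, which encodes plasminogen itself, had 0.06 (adjusted p = 0.658), and its sign turned under median centring (-0.054). TFPI2, a Kunitz-type inhibitor of plasmin chosen here after its values were seen, had 1.86 in replicate 1 and 0.79 in replicate 2 (mean 1.32, adjusted p = 0.289). Its other probe gave 2.41 and 0.95, so both probes were higher, and by more in replicate 1, the same order as in PLAU.

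Of the 20 other MMP genes, 0 passed limma's adjusted test, and their means ran from -0.06 to 0.56 with a median of 0.03. At an unadjusted p under 0.05, 0 were higher (against 4% of all genes) and 0 lower (against 13%). Among 5 metalloproteinase inhibitors 0 passed after adjustment. Before it 1 was higher (against 4% of all genes) and 1 lower (against 13%). TIMP1, which encodes a general MMP inhibitor, had 0.65 in replicate 1 and 0.30 in replicate 2 (mean 0.47, adjusted p = 0.293). Among 6 thrombospondins and receptors, 0 passed after adjustment, and 1 was lower before it (against 13% of all genes), with a median of 0.04. CD47, a receptor of thrombospondin-1 also chosen after its values were seen, had -1.16 in replicate 1 and -0.86 in replicate 2 (mean -1.01, adjusted p = 0.192), but its other probe gave -0.09. The 10 other clade B serpins, relatives of SERPINB2, had a median of -0.02, with 0 past the test after adjustment. Before it 0 were higher (against 4% of all genes) and 0 lower (against 13%).

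**Figure D4:**
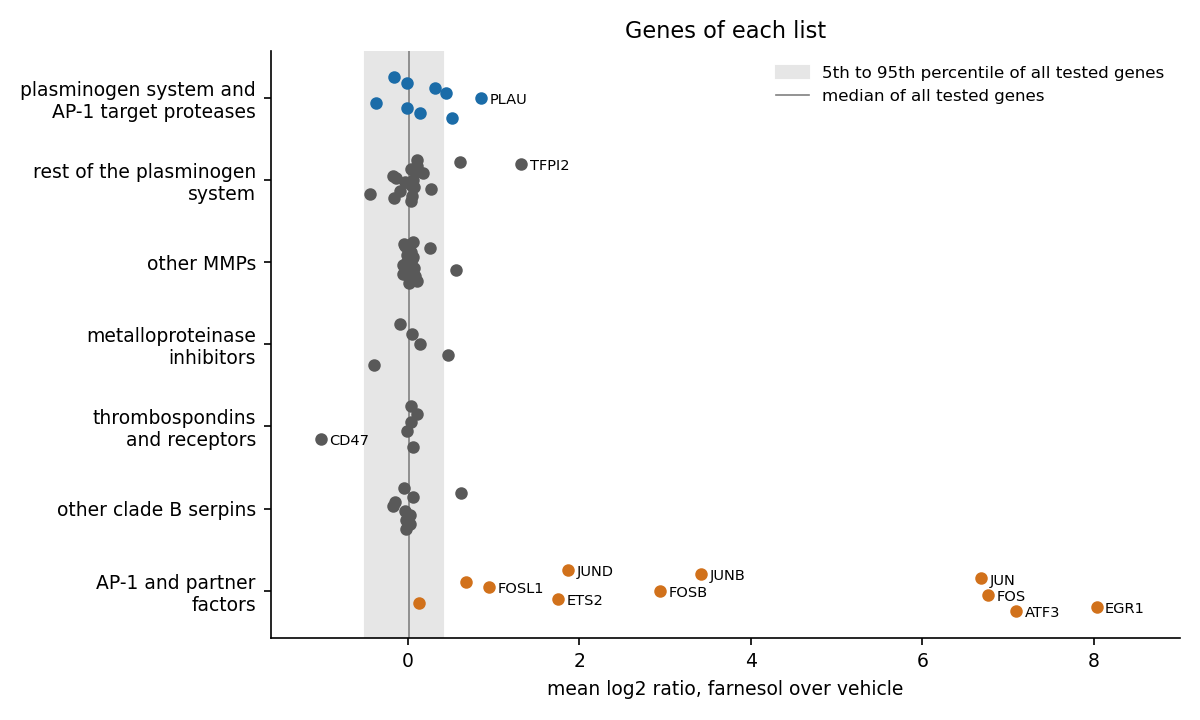
Mean log2 ratio of farnesol over vehicle (x axis) of every tested gene of 7 lists (rows), with the range from the 5th to the 95th percentile of all tested genes in grey (-0.50 to 0.41) and their median as a line. The 9 members lie between -0.37 and 0.85, and 7 of the 11 AP-1 and partner factors lie at or above 1.87.

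The AP-1 genes ranged from values like those of the members to far larger ones. FOS had a log2 ratio of 6.55 in replicate 1 and 6.98 in replicate 2 (adjusted p = 0.104), and JUN, its partner, 6.64 and 6.74 (adjusted p = 0.0342). JUN was saturated with farnesol on 2 of 4 arrays. FOSL1, another subunit, had 1.32 and 0.57 (adjusted p = 0.288). Of 11 AP-1 and partner factors, JUN and EGR1 (2 genes) passed limma's adjusted test as higher, against 0.0168% of all genes. By replicate means, 7 were at least 2-fold higher with all arrays in that direction, against 0.839% of all genes. These were FOS, FOSB (2.94), JUN, JUNB (3.42), JUND (1.87), ATF3 (7.09) and EGR1 (8.03). The other 4 factors, FOSL1 among them, had means from 0.14 to 1.75. A second JUNB probe gave 1.30. A second ATF3 probe gave 2.90, against 7.09 for the brighter one, and was not well above background with vehicle on any array. With the same processing, the highest value of a member on any array was 1.56, for PLAU.

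By Euclidean distance over the log2 ratios of the 4 arrays, the named genes most like PLAU were ARID5B (distance 0.11), MGC19764 (0.21) and SCG2 (0.23). ARID5B had 1.30 in replicate 1 and 0.38 in replicate 2. EHD1 (0.12), USP15 (0.16) and PCDH9 (0.16) were nearest to MMP1, and LOC375759 (0.11) and RASSF1 (0.13) were among the 3 nearest to PLAUR. These distances rest on 4 arrays of 2 replicates and only describe them.

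The authors' deposited table, which carries the title of replicate 1, lists 6 of the 11 probes. It holds 7018 probes in all, against 41000 probes on the array that are not controls. What being listed there means was not tested. In the authors' deposited table the ratio of farnesol over vehicle was 2.78 for PLAU, 1.89 for PLAUR, 2.26 for MMP1 and 0.633 for PLAT. The authors' deposited table gives 1.39 for the bright SERPINB2 probe and 2.87 for the dim one, whose vehicle spots were not well above background. Its directions are those given above, and it gives no second replicate.

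The arrays as a whole set the scale of these values. Between 82.4% and 92.9% of probes were well above background with farnesol, and between 88.8% and 91.1% with vehicle. Across named genes the dye-swapped arrays correlated at r = 0.965 in replicate 1 and 0.959 in replicate 2, and the replicate means at r = 0.710; genes are not independent. The median absolute difference between dye-swapped arrays was 0.072 in both replicates, and that between replicates 0.13. All 6 epithelial markers on the array (KRT8, KRT18, KRT19, KRT7, CDH1 and TACSTD1) were well above background on every array in both conditions. Their summed processed intensity was 261010 to 355270 with farnesol and 320660 to 413330 with vehicle, with a median log2 ratio of -0.28. For 5 tested fibroblast markers the sums were 2492 to 4713 with farnesol and 2037 to 4002 with vehicle. For 5 leukocyte markers they were 6804 to 10659 with farnesol and 6437 to 9717 with vehicle, and for 5 endothelial markers 3264 to 4433 with farnesol and 3229 to 4140 with vehicle. The part of these markers in the members' values was not tested.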

How the data were processed

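Both RNAs of a pair were amplified, labelled with Cy3 or Cy5 and hybridised to 1 array, per the labels' protocols. The scanner output is from Agilent Feature Extraction (8.1.1.1 in the files, 8.1 in the labels). The deposited intensity values are a spot's mean and its local background's median brightness, uncorrected, per the file headers. The processed intensity values and their log10 ratio were, per the file headers, spatially detrended and dye-normalized. A table the authors deposited holds a linear ratio and a p-value per probe from a program not given in the sources used here. Its log2 ratio followed the processed values of replicate 1 (r = 0.9999 across probes), with the dyes as labelled.

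In limma 3.58.1 (R 4.3.3; files read with the package data.table, version 1.17.8), normexp with offset 50 corrected the background and loess the log ratios. Control and outlying spots had weight 0 and were left out, while saturated spots were kept. Ratios were turned to farnesol over vehicle, and each pair's arrays averaged, so n = 2. To be tested, a probe had to exceed background well in the same condition on at least 1 array per replicate. This left 28600 features, 17871 of them named genes, each given by its brightest probe. limma's moderated test was two-sided, adjusted by Benjamini-Hochberg over all features, with 1 residual and 1.81 prior degrees of freedom. The procedure was tested on simulated data. The labels say only that the experiments were duplicates, so the p-values measure the spread between these samples. Alternatives were an offset of 0, median centring, the processed values, the mean of probes, other filters, 1 dye orientation, saturated spots left out, arrays as blocks and 1 replicate.

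Members, lists and naming rules were chosen with earlier results of these data known. Of the lists, genes with replicate means of at least 2-fold and all arrays in that direction were named, with PLG, TIMP1, FOS, JUN and FOSL1. For the 3 members of largest mean ratio, the 3 nearest genes were named. Some genes that these rules name are not reported here.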

Additional observations from a re-analysis of the deposited data

How the results depend on the processing

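Over 13 other settings, PLAU, PLAUR, SERPINB2, MMP1 and MMP10 stayed higher and PLAT and THBS1 lower in their mean. SERPINE2 turned to 0.046 with an offset of 0, to 0.017 with processed values and to 0.023 on the arrays with farnesol in Cy5, and was -0.17 or 0.16 with 1 replicate left out. MMP3 turned to 0.069 under median centring and to 0.0245 on the arrays with farnesol in Cy3. PLG turned to -0.054 under median centring. The members' median log2 ratio, 0.15, was 0.26 with an offset of 0, 0.24 with processed values, 0.20 with farnesol in Cy5 and 0.10 with farnesol in Cy3, and from 0.13 to 0.16 with 1 replicate left out. Limma called 0 members except with all 4 arrays in the fit: 4 with the replicate as a random block and 7 with it as a fixed block beside the dye, where the spread between replicates leaves the error by construction. Over all named genes the count past the test was 3, against 55 with an offset of 0, 51 with processed values, 23 under median centring, 5 with farnesol in Cy5, 14 with farnesol in Cy3, 2261 with the random block and 10987 with the fixed block. Of the surrounding lists' 60 genes outside AP-1, 6 and 27 passed in those block fits and 0 otherwise. At least 2-fold higher members numbered 0, but 1, MMP1, with an offset of 0 or processed values, and 1, PLAU, without replicate 2 (1.81% of all genes). Of the 60 genes, 1 was at least 2-fold lower under median centring. Without replicate 2 there was 1 higher (against 1.81% of all genes) and 1 lower. The shares of all genes that were lower in these settings are not given here, so the lower counts have no background beside them. Removing saturated spots moved no member. The main test is itself paired, since each ratio sets the farnesol RNA against the vehicle RNA of its own experiment. Signal limits the second SERPINB2 probe and MMP1, whose vehicle spots were not well above background on 4 and 1 arrays. It also limits the second THBS1 probe, which was well above background with farnesol on 3 of 4 arrays. MMP3 was well above background on all 4 arrays in both conditions but was also dim, with processed intensities of 164 to 220.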
